A study of Mus musculus with 4 samples.

Results

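Genes of the respiratory chain were followed in single nuclei from the paraventricular nucleus (PVN), a hypothalamic region of the mouse, both those that mitochondria encode themselves and those that the nucleus encodes. Members were the genes whose symbols match the names of complex I subunits (Nduf and mt-Nd), complex III subunits (Uqcr and mt-Cytb), cytochrome c oxidase or complex IV subunits (Cox4 to Cox8 and mt-Co) and ATP synthase or complex V subunits (Atp5 and mt-Atp). They were 94 of the 32285 genes in the deposited matrices: 13 mitochondrially encoded and 81 nuclear-encoded. Single-nucleus RNA sequencing by the 10x Genomics 3' droplet assay was run on 4 libraries, each made from PVN micropunches of 5 male C57BL/6 mice pooled, with an age of 10 weeks in the labels. There were 2 libraries at zeitgeber time 8 (ZT8, 8 h after lights on) and 2 at ZT20, and the labels name time of day as the only difference between the groups. Nothing in the labels says whether the libraries of 1 time came from separate days, so p-values measure the spread between these libraries, which may be partly technical.

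The respiratory chain passes electrons from NADH through complexes I, III and IV to oxygen and pumps protons across the inner mitochondrial membrane, and ATP synthase uses the proton gradient to make ATP. Its core subunits of complexes I, III, IV and V come from both genomes. The mitochondrial genes are transcribed inside the organelle as long polycistronic RNAs, so their transcripts are not made in the nucleus, whereas the nuclear-encoded members are transcribed, spliced and exported like other genes. Neurons rely on this chain for most of their ATP.

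Barcodes numbered 6453 to 9413 a library, unique molecular identifiers (UMIs, counts of captured RNA molecules) 57970649 to 69223344, and nuclei kept 6053, 6513 (ZT8), 7747 and 8667 (ZT20). Any pair of libraries shared 10 to 25 barcodes. Clusters were made without the members and named from marker genes. The cluster with the most nuclei had few UMIs (a median of 876 over 9691 nuclei) and no name, and it held 22.8% and 23.6% of kept nuclei at ZT8 but 37.0% and 45.1% at ZT20. It is called the low-UMI cluster here. Thalamic-like nuclei made up 4219 of the 10147 neuron-like nuclei, against 397 that carried the Sim1 PVN-like markers, so a large share of the neurons did not match the labelled tissue. Of 2269 and 2389 neuron-like nuclei in the ZT8 libraries 1281 and 1389 were thalamic-like, and of 2779 and 2710 in the ZT20 libraries 798 and 751. The shares of low-UMI, thalamic-like, Sim1 PVN-like and tanycyte-like nuclei all differed between the times, so values are also given within classes. Whether the punches took the same tissue at both times was not tested. Time changes in neuron-like nuclei or in all nuclei do not by themselves separate time from tissue. In sums over nuclei of several classes, fewer nuclei of a class and less RNA per nucleus cannot be told apart.

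Promoters of the nuclear-encoded members are shown first, since a recurring trait of these genes is a short list of promoter motifs. Nuclear respiratory factor 1 (NRF1), GA-binding protein (GABP) and YY1 are factors known to bind promoters of respiratory genes. RefSeq promoters (build GRCm38.p6, 250 bases before to 50 after the start) were found for 65 of the 81 nuclear-encoded members. The NRF1 motif (GCGCA and GCGC with 1 base of any kind between them, searched on both strands like the others) was in 15 of these 65 windows (23.1%), against 5.19% of the 27025 genes in the table. The YY1 motif AANATGGCG was in 10 (15.4%, against 2.76% of all genes), and the GABP motif CCGGAAGT was in 5 (7.69%, against 4.31%). At least 1 of the 3 was in 43.1% of members and 11.2% of all genes; the motifs can share a window, as in Ndufs6 and Atp5h. The 3 sequences below are the 250 bases upstream of genes that the results turn on, read 5′ to 3′ on the gene's strand, with the NRF1 motif in capitals. They are Cox6a1, a general complex IV subunit with a pair of matches (chr5:115348959-115349208, minus strand), Atp5g2, a c-ring subunit of ATP synthase with 1 match (chr15:102671048-102671297, minus strand), and Cox7b2, a complex IV isoform that differed most between neuron groups and holds no match (chr5:71548206-71548455, minus strand).
Cox6a1: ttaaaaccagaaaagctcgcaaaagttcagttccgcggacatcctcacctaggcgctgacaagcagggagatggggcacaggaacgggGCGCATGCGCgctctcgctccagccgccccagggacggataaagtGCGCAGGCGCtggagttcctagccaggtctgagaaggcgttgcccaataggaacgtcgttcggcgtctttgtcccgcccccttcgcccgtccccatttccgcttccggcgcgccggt
Atp5g2: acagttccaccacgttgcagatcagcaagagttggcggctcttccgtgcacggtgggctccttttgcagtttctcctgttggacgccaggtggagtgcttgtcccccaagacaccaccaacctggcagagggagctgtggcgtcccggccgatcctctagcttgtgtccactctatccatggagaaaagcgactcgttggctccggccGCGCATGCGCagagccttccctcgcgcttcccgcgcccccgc
Cox7b2: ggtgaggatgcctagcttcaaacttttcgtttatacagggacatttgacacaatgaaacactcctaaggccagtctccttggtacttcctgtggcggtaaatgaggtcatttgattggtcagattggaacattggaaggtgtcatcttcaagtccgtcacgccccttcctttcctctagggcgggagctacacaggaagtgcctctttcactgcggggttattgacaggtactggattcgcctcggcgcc
The matches in Cox6a1 begin 162 and 117 bases before the start, and that in Atp5g2 begins 42 bases before it. A match is a description of letters and not a measured binding site. In neuron-like nuclei the median log2 change from ZT8 to ZT20 was 0.24 over the 15 tested members with an NRF1 match and 0.29 over the 48 tested without one. With a YY1 match it was 0.26 (10 members) and without one 0.26 (53 members), and with a GABP match 0.33 (5 members) and without one 0.26 (58 members). These differences were not tested.

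Which RNA of the respiratory chain was found in nuclei, and how much of it also lay in droplets with little nuclear RNA, was examined first. Member UMIs rose far less than in proportion to a nucleus's total UMIs. In nuclei with fewer than 1000 UMIs the 13 mitochondrial members gave 4.47 and 4.51 UMIs per nucleus at ZT8 and 6.32 and 6.28 at ZT20. In nuclei with more than 16000 UMIs they gave 15.4, 17.3, 26.3 and 25.6. Between these bins the mean total rose 29.7-fold to 33.1-fold, the mitochondrial members 3.44-fold to 4.16-fold and the nuclear-encoded members 3.14-fold to 3.76-fold. Both groups of members thus rose by similar folds over all nuclei pooled, where depth and class changed together. Cytosolic ribosomal protein genes rose 3.04-fold to 3.86-fold between the same bins, and 9 noncoding RNAs that stay in the nucleus rose 109-fold to 127-fold.

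**Figure D1:**
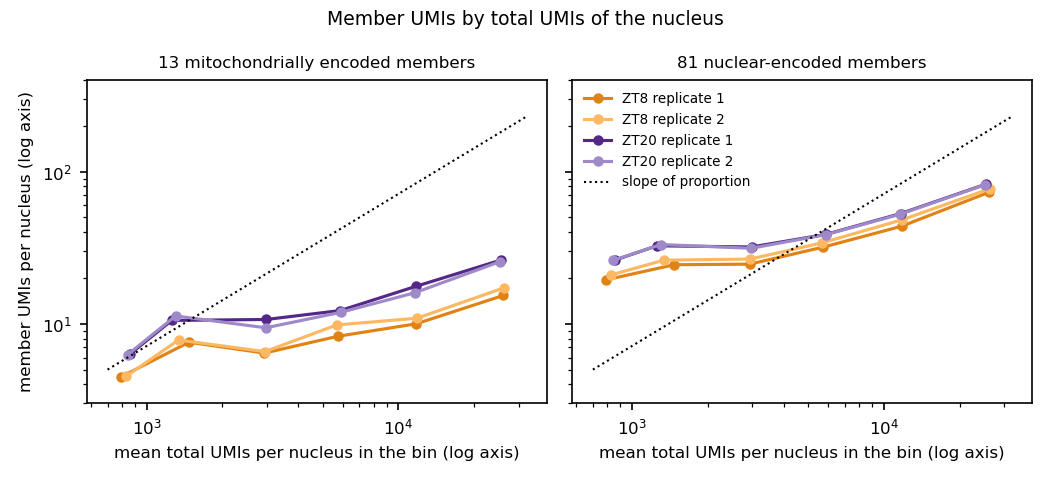
Member UMIs per nucleus (log axis) against the mean total UMIs of the nuclei in each bin (log axis), 1 line per library, for the 13 mitochondrial (left) and 81 nuclear-encoded members (right); the dotted line shows the slope of strict proportion. Both groups rise much less steeply than the dotted line, and the ZT20 libraries lie above the ZT8 libraries in every bin on the left.

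Between classes the members also differed less than a set of neuron genes. In oligodendrocyte-like nuclei a panel of 5 neuron genes (Snap25, Syt1, Rbfox3, Grin2b, Celf4) reached 3.92% to 4.30% of its level per neuron-like nucleus over the 4 libraries. These 5 genes were among the markers that named the clusters, so their low share outside neuron-like nuclei follows from the naming and is no result. The mitochondrial members reached 49.0% to 53.0% and the nuclear-encoded members 47.5% to 53.8% of their levels per neuron-like nucleus. In the low-UMI cluster these shares were 4.30% to 4.66% for the neuron panel, 40.3% to 48.2% for the mitochondrial and 39.4% to 48.4% for the nuclear-encoded members. At ZT8 the mitochondrial shares were 48.2% and 45.9% and the nuclear-encoded shares 40.6% and 39.4%. At ZT20 they were 40.3% and 40.3% against 48.4% and 47.3%. The 9 noncoding RNAs of the nucleus, which named no cluster, reached 28.1% to 34.8% in oligodendrocyte-like nuclei and 1.5% to 1.7% in the low-UMI cluster. Both member groups thus kept far more in the low-UMI cluster than these noncoding RNAs did. The order of the 2 member groups turned between the times. Barcodes with fewer than 500 genes, which were not kept, held 2.57 to 2.96 mitochondrial and 9.90 to 17.8 nuclear-encoded member UMIs each (10 to 61 barcodes a library). Droplets without a nucleus were not analysed here, so how much of the members' UMIs is free RNA was not tested.

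Longer nuclear-encoded members tended to have a higher ratio of neuron-like to low-UMI nuclei, with overlap. Neuron-like nuclei had 16.7 times the total UMIs of the low-UMI cluster but 2.24 times its mitochondrial UMIs, and the median over 75 nuclear-encoded members with at least 1000 UMIs was 2.02 times. The 9 members that span 20000 bp or more had a median ratio of 5.01 (2.45 to 43.4), and the 66 shorter ones 1.95 (1.31 to 4.66). These ranges overlapped: Ndufa12 (22724 bp) was at 2.45 and the shorter Ndufs3 (10194 bp) at 4.66. No ratio by span over all genes is given here, so whether this trait is particular to the members was not tested. The highest ratios belonged to Cox7b2 (43.4), to Ndufs4 (13) and Ndufs1 (9.34), subunits of the iron-sulphur part of complex I, to Ndufa10 (5.96), an accessory subunit of complex I, and to Uqcrc2 (5.01), a core protein of complex III. Across the 75 genes, which share libraries and depth, Spearman's rho between span and ratio was 0.63, given as a description. On GRCm38, Cox7b2 spans 105382 bp and Ndufs4 100464 bp of their chromosomes, and whether introns were counted is not given in the sources used here. Ndufs1 and Uqcrc2 overlap genes on the other strand (Eef1b2 and Ino80dos, and Pdzd9).

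**Figure D2:**
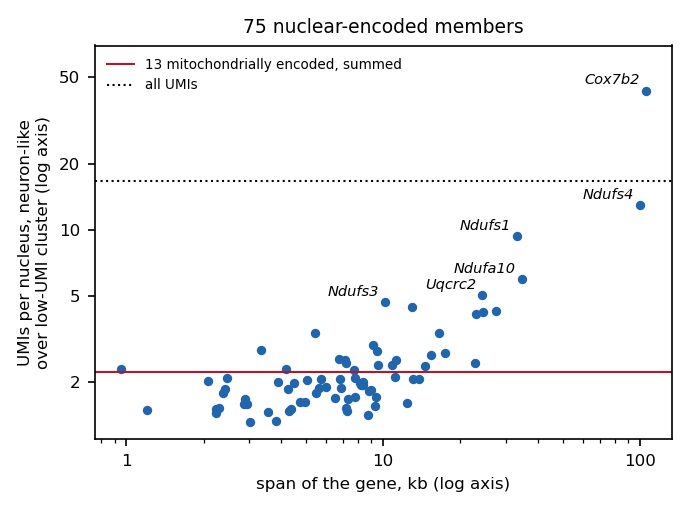
UMIs per neuron-like nucleus divided by UMIs per nucleus of the low-UMI cluster (log axis) against the span of the gene in kb (log axis) for 75 nuclear-encoded members, 1 point each; the red line is the ratio of the summed mitochondrial members and the dotted line that of all UMIs. Points of short genes lie near the red line at 2.24, and Cox7b2 alone lies above the dotted line at 16.7.

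Levels per class were then compared. Summed mitochondrial UMIs per nucleus were highest in ependymal-like nuclei, with 76.3 and 102 at ZT8 and 90.8 and 61.3 at ZT20 (11 to 19 nuclei a library). Endothelial-like nuclei followed with 25.9, 31.7, 37.9 and 37.7. Neuron-like nuclei had 10.4, 11.3, 17.9 and 17.0, and within them thalamic-like nuclei had 11.3, 11.9, 21.6 and 21.6. Microglia-like nuclei (4.39, 5.82, 7.16 and 7.48) lay near the low-UMI cluster (4.99, 5.20, 7.20 and 6.84), and these values overlapped.

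Nuclear-encoded UMIs per nucleus varied less between classes. Thalamic-like nuclei had 56.3 and 62.1 at ZT8 and 66.8 and 65.6 at ZT20, endothelial-like nuclei 41.3, 49.5, 50.4 and 49.8, and oligodendrocyte-like nuclei 23.8, 26.9, 30.8 and 30.6. The number of mitochondrial UMIs per nuclear-encoded member UMI therefore set the ependymal-like and endothelial-like nuclei apart. It was 1.70, 2.35, 1.45 and 1.74 in ependymal-like nuclei and 0.626, 0.640, 0.752 and 0.756 in endothelial-like nuclei. In neuron-like nuclei it was 0.206, 0.201, 0.311 and 0.298, and in oligodendrocyte-like nuclei 0.213, 0.223, 0.295 and 0.280. Fibroblast-like nuclei (0.369, 0.377, 0.496 and 0.501, from 16 to 27 nuclei) lay in between.

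**Figure D3:**
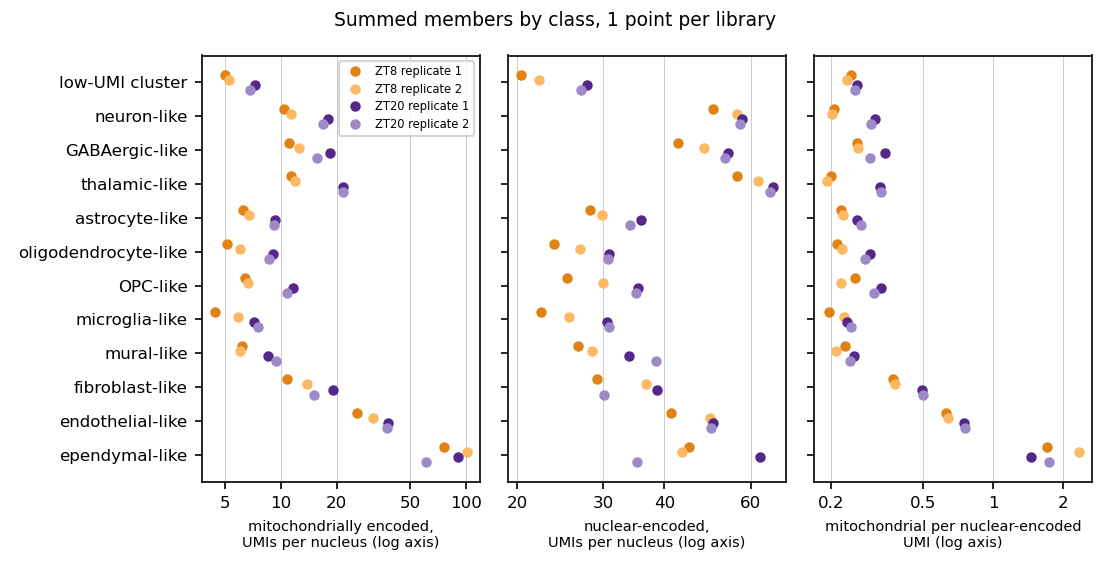
Summed member UMIs per nucleus for each class, 1 point per library (orange ZT8, purple ZT20): mitochondrially encoded (left), nuclear-encoded (middle) and the number of mitochondrial per nuclear-encoded UMI (right), all on log axes. Ependymal-like and endothelial-like nuclei stand to the right in the left and right panels, and the ZT20 points lie to the right of the ZT8 points in the left panel for every class drawn but ependymal-like.

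Against neuron-like nuclei the direction of nearly every member depended on the scaling, as glia hold fewer UMIs. Scaled to UMI totals, 13 of 13 mitochondrial members were called higher in astrocyte-like nuclei by edgeR's quasi-likelihood test, 74 of 77 tested nuclear-encoded members were called higher and 1 lower, against 30.4% of all genes higher and 36.3% lower; scaled to the number of nuclei, 0 mitochondrial members were higher and 13 lower, and 1 nuclear-encoded member was higher and 75 lower. In oligodendrocyte-like nuclei 13 mitochondrial and 73 of 77 nuclear-encoded members were higher and 2 nuclear-encoded members lower (32.2% of all genes higher, 40.4% lower), and per nucleus 13 and 75 were lower. OPC-like nuclei (oligodendrocyte precursors) had 11 of 13 and 61 of 77 higher and 2 lower (20.9% and 27.4% of all genes), and per nucleus 11 and 75 lower. Microglia-like nuclei had 13 and 65 of 77 higher and 2 lower (22.3% and 33.6% of all genes), and per nucleus 12 and 75 lower. Mural-like nuclei had 7 of 13 (4 without either ZT8 library) and 48 of 78 higher and 1 lower (7.46% and 12.5% of all genes), and per nucleus 10 and 47 lower. Their markers were those of pericytes of vessels (226 UMIs of Abcc9 and 389 of Vtn). The smooth muscle genes Acta2, Myh11 and Tagln gave 3, 13 and 4 UMIs. A cluster of 165 nuclei led by these smooth muscle genes stayed unnamed and is not in the mural-like class. The medians of all genes moved from -0.10 to -1.79 between the scalings in astrocyte-like nuclei and from -0.14 to -2.25 in oligodendrocyte-like nuclei, so under either scaling the members' median lay above that of all genes.

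Of the 6 classes tested against neuron-like nuclei, endothelial-like nuclei had mitochondrial members called higher under both scalings. All 13 were called, with a median log2 difference of 2.71 per UMI and 1.19 per nucleus, against medians of -0.28 and -1.80 for all genes. The largest belonged to mt-Atp6, a subunit of the proton channel of ATP synthase (3.06 ± 0.19 SE, adjusted p = 4.7e-56 with edgeR), and mt-Nd6, the member encoded on the other strand of mitochondrial DNA (3.03 ± 0.36 SE, adjusted p = 8.3e-16). Of 79 nuclear-encoded members tested, 71 were higher and 2 lower per UMI (22.7% and 29.0% of all genes), but 10 were higher and 26 lower per nucleus. Mitochondrial and nuclear-encoded members thus went apart per nucleus in this class. Cytosolic ribosomal protein UMIs were higher too, at 111, 132, 136 and 135 per endothelial-like and 64.1, 71.7, 81.5 and 81.1 per neuron-like nucleus. With at most 1% mitochondrial UMIs allowed, 76 and 79 (ZT8) and 26 and 34 (ZT20) of 105, 115, 57 and 61 endothelial-like nuclei remained. The comparison with neuron-like nuclei was not repeated under that limit.

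Tissue isoforms of complex IV subunits showed the sharpest differences between classes. Ndufa4l2, an isoform of the complex IV subunit Ndufa4 known from pericytes and low oxygen, gave 22.5 UMIs per 100 endothelial-like nuclei (exact 95% Poisson interval 17.7 to 28.1) and 30.1 per 100 mural-like nuclei (20.01 to 43.5), against 0.315 per 100 neuron-like nuclei (0.216 to 0.445). Such intervals cover counting error only. Its log2 difference from neuron-like nuclei was 7.64 ± 0.47 SE in endothelial-like nuclei (adjusted p = 1.4e-57) and 8.33 ± 0.59 SE in mural-like nuclei (adjusted p = 6.3e-43, edgeR), and per nucleus 6.12 and 6.54. Cox4i2, the isoform of Cox4i1 linked to oxygen sensing, gave 13.02 UMIs per 100 endothelial-like nuclei (9.46 to 17.5) and 23.7 per 100 mural-like nuclei (14.8 to 35.8), against 0.522 in neuron-like nuclei. Its log2 difference in endothelial-like nuclei was 6.07 ± 0.49 SE per UMI (adjusted p = 2.3e-33, edgeR) and 4.55 per nucleus. In contrast, the general forms Ndufa4 and Cox4i1 gave 125 and 176 UMIs per 100 endothelial-like nuclei and 117 and 165 per 100 neuron-like nuclei.

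Endothelial-like nuclei also held UMIs of mural genes. Abcc9, Kcnj8 or Vtn, all known from pericytes, had a UMI in 92 of the 338 endothelial-like nuclei. In those 92 nuclei Ndufa4l2 was detected in 31 (33.7%) and Cox4i2 in 23 (25%), and in the other 246 nuclei Ndufa4l2 was detected in 6 (2.44%) and Cox4i2 in 2 (0.813%). Endothelial-like nuclei with either isoform detected were thus mostly those with a UMI of Abcc9, Kcnj8 or Vtn. Whether those hold RNA of a pericyte was not tested. The other 246 were not free of mural UMIs, as Rgs5 was detected in 51 of them (20.7%), against 68 of the 92 (73.9%). The endothelial-like UMIs of both isoforms lay in a cluster of 292 nuclei. The other endothelial-like cluster, of 46 nuclei, had 0 UMIs of either isoform and of Rgs5. Shmt2 lies on the other strand over Ndufa4l2.

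Cox7b2, an isoform of the complex IV subunit Cox7b best known from testis, was the member with the widest range among neurons. It gave 63.2 UMIs per 100 thalamic-like nuclei (60.8 to 65.6) and 8.09 per 100 GABAergic-like nuclei (6.97 to 9.34), and the log2 difference between them was -2.41 ± 0.10 SE (adjusted p = 3.7e-11, edgeR) and -2.95 per nucleus. Cox6a2, the heart and muscle isoform of Cox6a1, gave 23.7 UMIs per 100 thalamic-like and 6.75 per 100 GABAergic-like nuclei, with a log2 difference of -1.23 ± 0.15 SE (adjusted p = 5e-06, edgeR) and -1.78 per nucleus. The level of Cox6a2 in GABAergic-like nuclei was close to the 5.86 per 100 nuclei of the low-UMI cluster, whereas Cox7b2 was at 0.733 there.

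In the 5 non-neuronal classes where it was tested on counts above 0, Cox7b2 was lower than in neuron-like nuclei under both scalings. Its log2 difference from neuron-like nuclei was -3.77 ± 0.22 SE in oligodendrocyte-like nuclei, where 17 UMIs were counted in 2913 nuclei. In microglia-like nuclei 2 UMIs were counted in 490 nuclei, in endothelial-like nuclei 4 UMIs in 338 nuclei, and in mural-like nuclei 0 UMIs in 93 nuclei. With 3 counts over the mural-like group as the floor, the level per mural-like nucleus was at least 9.86-fold lower than per neuron-like nucleus. Astrocyte-like nuclei kept more, with 6.38 UMIs per 100 nuclei.

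Cox6b2, the isoform of Cox6b1 best known from testis, went the other way. It gave 4.32 UMIs per 100 astrocyte-like nuclei (3.37 to 5.44) and 6.09 per 100 OPC-like nuclei (4.14 to 8.64), against 1.34 per 100 neuron-like nuclei (1.12 to 1.59). The log2 differences were 3.36 ± 0.30 SE (adjusted p = 2.3e-11) and 3.53 ± 0.44 SE (adjusted p = 1.4e-14) with edgeR, and 1.67 and 2.18 per nucleus. It was thus higher in both glial classes under either scaling. Cox8b and Cox8c, the muscle and testis isoforms of Cox8a, had almost no UMIs and were not tested.

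**Figure D4:**
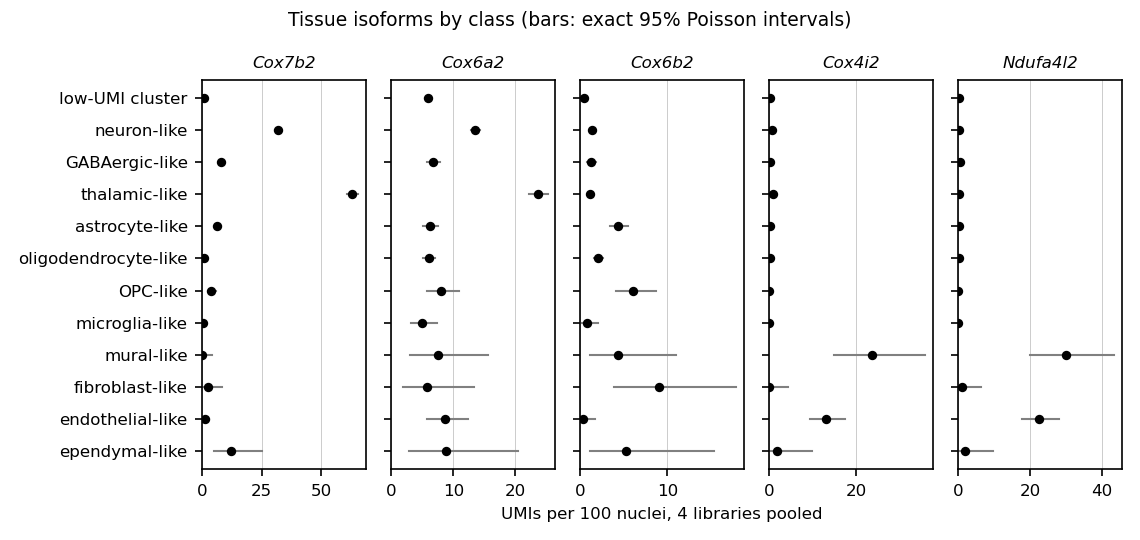
UMIs per 100 nuclei of 5 tissue isoforms of complex IV subunits in each class, the 4 libraries pooled, with exact 95% Poisson intervals as bars. Cox7b2 and Cox6a2 peak in thalamic-like nuclei, and Cox4i2 and Ndufa4l2 in mural-like and endothelial-like nuclei.

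GABAergic-like and thalamic-like nuclei were compared over all members. Per UMI 10 of 13 mitochondrial and 56 of 75 nuclear-encoded members were higher in GABAergic-like nuclei and 4 nuclear-encoded members lower (28.0% and 28.2% of all genes), and per nucleus 3 mitochondrial and 70 nuclear-encoded members were lower and 0 higher. The medians per nucleus were -0.18 and -0.31 for the member groups and -0.54 for all genes, and DESeq2 called 37 nuclear-encoded members higher per UMI. Besides Cox7b2 and Cox6a2, the members lower under both scalings were Ndufa10 (-0.34 ± 0.05 SE, -0.89 per nucleus) and Ndufs3, an iron-sulphur subunit of complex I (-0.18 ± 0.06 SE, -0.72 per nucleus).

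The series sets ZT8 against ZT20, and the mitochondrial members were higher at ZT20. In neuron-like nuclei 12 of 13 were called higher by edgeR's quasi-likelihood test at an adjusted p under 0.05 and 0 lower, against 22.3% of all 19450 genes tested higher and 21.9% lower. Their median log2 change was 0.80 per UMI and 0.66 per nucleus, and the count was 12 under both scalings. The most changed was mt-Cytb, cytochrome b of complex III. It measured 48.8 and 50.9 CPM (UMIs scaled to the UMI total of the class in the library) at ZT8 and 106 and 106 CPM at ZT20, and its log2 change was 1.02 ± 0.03 SE (adjusted p = 2.7e-15). Its ZT20 libraries lay far above its ZT8 libraries.

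Members of each mitochondrial complex shared this rise in neuron-like nuclei. mt-Co1, the catalytic subunit of complex IV, measured 119 and 122 CPM at ZT8 and 230 and 220 CPM at ZT20 (log2 change 0.84 ± 0.03 SE, adjusted p = 3.5e-15 with edgeR). That was 183 and 204 UMIs per 100 nuclei in the ZT8 libraries, and 326 and 307 in the ZT20 libraries. The other complex IV subunits mt-Co2 and mt-Co3 changed by 0.80 and 0.84 on the log2 scale. The ATP synthase subunits mt-Atp6 and mt-Atp8 changed by 0.68 and 0.70. Of complex I, mt-Nd2 changed by 0.89 and mt-Nd3 by 0.99, mt-Nd1 by 0.76, mt-Nd4 by 0.77, mt-Nd5 by 0.79 and mt-Nd4l by 0.92. The libraries of the 2 times did not overlap for any of the 12 called. This held for every called member named in a time comparison, so it adds no support to the calls.

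mt-Nd6 was the exception among the 13. It measured 3.30 and 3.08 CPM at ZT8 and 4.33 and 3.51 CPM at ZT20, with a log2 change of 0.24 ± 0.14 SE (adjusted p = 0.16, edgeR). It is the lowest of the members in UMIs, at 0.370% of mitochondrial UMIs in neuron-like nuclei, and lies antisense to mt-Nd5. Of the mitochondrial UMIs mt-Co1 took 18.1% in neuron-like nuclei, 18.7% in oligodendrocyte-like nuclei, 17.8% in the low-UMI cluster and 25.8% in ependymal-like nuclei, where UMIs count molecules and are not scaled by length. mt-Atp8, mt-Atp6 and mt-Co3 overlap or adjoin on 1 strand, as do mt-Nd4l and mt-Nd4, so reads may be split between them.

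Nuclear-encoded members were also higher at ZT20 in neuron-like nuclei, by less. Of 78 tested, 60 were called higher and 5 lower per UMI, with a median log2 change of 0.27. Per nucleus 27 were higher and 7 lower, with a median of 0.13, while the median of all genes moved from 0.01 to -0.12. By complex, 29 of 36 tested members of complex I were higher and 2 lower, 5 of 8 of complex III higher and 1 lower, 12 of 17 of complex IV higher and 2 lower, and 14 of 17 of ATP synthase higher and 0 lower. Per nucleus 13, 3, 6 and 5 members of these complexes were higher and 3, 1, 3 and 0 lower. In each of the 4 complexes more members were thus called higher than lower under both scalings. Per UMI 22.3% of all genes were called higher and 21.9% lower. The share of all genes called per nucleus was not computed, so the counts per nucleus lack that comparison.

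The nuclear-encoded members that led, which here and below means those with the smallest p among those called, came from complexes I, IV and V. Cox7c, an accessory subunit of complex IV, measured 84.8 and 86.4 CPM at ZT8 and 116 and 114 CPM at ZT20 (log2 change 0.37 ± 0.03 SE, adjusted p = 1.3e-09 with edgeR). Ndufc2, an accessory subunit of complex I, measured 39.0, 41.2, 58.5 and 60.9 CPM (0.51 ± 0.04 SE). Atp5e, the epsilon subunit of ATP synthase, measured 27.6, 27.6, 41.8 and 40.1 CPM (0.51 ± 0.04 SE). The libraries of the 2 times did not overlap for these genes, as for every called member named over time. Ndufa4, Cox6c and Cox8a of complex IV, Atp5j2 of ATP synthase and Ndufb1-ps of complex I changed by 0.39, 0.39, 0.33, 0.43 and 0.45 per UMI, and by 0.26, 0.26, 0.20, 0.30 and 0.31 per nucleus, all called under both scalings.

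Of the core subunits picked for naming whatever their p, the nuclear-encoded ones gave these values in neuron-like nuclei. Ndufv1, which holds the flavin of complex I, changed by 0.11 ± 0.05 SE (adjusted p = 0.086), Uqcrc1 by -0.02 ± 0.04 SE and Uqcrfs1, the Rieske iron-sulphur protein, by 0.09 ± 0.06 SE (adjusted p = 0.66 and 0.26, edgeR), and none of these was called. Atp5b, the catalytic beta subunit of ATP synthase, rose by 0.08 ± 0.03 SE per UMI (adjusted p = 0.026, edgeR) and measured -0.05 per nucleus, where it was not called. Cox5a rose by 0.26 ± 0.04 SE. Of the c-ring genes of ATP synthase, Atp5g1, Atp5g2 and Atp5g3 rose by 0.10, 0.17 and 0.22 per UMI and were not called per nucleus (-0.03, 0.03 and 0.08). With equal nuclei per cluster Atp5g1 and Atp5g2 were not called either (0.045 and 0.053).

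Among isoform pairs the general forms rose per UMI in neuron-like nuclei. Cox4i1, Cox6a1, Cox6b1, Cox7a2, Cox7a2l and Cox7b changed by 0.28, 0.24, 0.30, 0.37, 0.32 and 0.24, all called. Of these Cox7a2 was also called per nucleus (0.24). The isoforms Cox4i2 (-0.93 ± 0.41 SE), Cox6b2 (0.07 ± 0.27 SE) and Cox7a1 (0.63 ± 0.29 SE) had few UMIs and were not called, but Cox4i2 was called lower per nucleus (-1.07, adjusted p = 0.046 with edgeR).

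The 5 members lower at ZT20 in neuron-like nuclei were Cox7b2, Cox6a2, Ndufa10, Ndufs1 and Uqcrc2. Cox7b2 measured 25.2 and 25.3 CPM at ZT8 and 18.1 and 16.6 CPM at ZT20 (log2 change -0.60 ± 0.06 SE, adjusted p = 3.2e-08 with edgeR). When each cluster was sampled down to equal numbers of nuclei in every library, its change was 0.07 (adjusted p = 0.55), and that of Cox6a2 went from -0.42 to -0.06 (adjusted p = 0.74). Within thalamic-like nuclei Cox7b2 measured 32.0, 32.3, 33.4 and 32.4 CPM (0.05 ± 0.07 SE, adjusted p = 0.66), and thalamic-like nuclei were a smaller share of neuron-like nuclei at ZT20. The 4 values in thalamic-like nuclei overlapped between the times. Ndufa10 fell by 0.23 (± 0.04 SE) and still by 0.14 with equal nuclei per cluster (adjusted p = 0.021), and Uqcrc2 fell by 0.10 and by 0.16 (adjusted p = 0.0055). Ndufs1 fell by 0.12, and its change with equal nuclei was -0.10 (adjusted p = 0.067).

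All of these but Cox6a2 are long genes. Of the 9 members spanning 20000 bp or more, 3 were higher and 4 lower in neuron-like nuclei, with a median of -0.00 (-0.60 to 0.16), and of the 69 shorter ones 57 were higher and 1 lower, with a median of 0.30 (-0.93 to 0.63). In all nuclei pooled the medians were 0.11 over the 9 long and 0.51 over the 70 short members.

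Time changes in the other classes had the same direction for most members. In thalamic-like nuclei 12 of 13 mitochondrial members were higher with a median of 0.94, and 46 of 77 nuclear-encoded members were higher and 2 lower (11.0% of all genes higher, 9.2% lower; DESeq2 called 29 higher). There mt-Co1 measured 104 and 105 CPM at ZT8 and 213 and 210 CPM at ZT20 (1.03 ± 0.03 SE, adjusted p = 5.5e-77 with edgeR), and 198, 213, 411 and 400 UMIs per 100 nuclei. Atp5k, the subunit e of ATP synthase, led its nuclear-encoded members (0.57 ± 0.06 SE), before Cox6c (0.40) and Ndufb1-ps (0.42). Ndufa10 and Uqcrc2 were the 2 lower, at -0.13 and -0.14, and per nucleus neither was called. In GABAergic-like nuclei 10 of 13 mitochondrial members (median 0.46) and 21 of 75 nuclear-encoded members (median 0.19) were higher and 0 lower (5.44% and 3.38% of all genes), led by Atp5k, Atp5md and Uqcr10 (0.53, 0.51 and 0.52). DESeq2 called 3 of these nuclear-encoded members higher.

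Glia showed the same order of the 2 groups. In oligodendrocyte-like nuclei 10 of 13 mitochondrial members (median 0.61) and 34 of 75 nuclear-encoded members (median 0.26) were higher and 0 lower, against 5.65% and 4.92% of all genes. Per nucleus 14 of the nuclear-encoded members were higher, and per UMI the count was 22 without ZT20 replicate 2 or with equal nuclei per cluster, and 13 with DESeq2. In astrocyte-like nuclei 8 of 13 (median 0.51) and 18 of 76 (median 0.23) were higher and 0 lower, against 3.4% and 2.1% of all genes, and DESeq2 called 2 of the nuclear-encoded members. Ndufb1-ps, Atp5md, an accessory protein of ATP synthase, and Ndufc1, an accessory subunit of complex I, led in astrocyte-like nuclei with 0.65, 0.50 and 0.67. Atp5md, Atp5k and Cox6c led in oligodendrocyte-like nuclei with 0.54, 0.50 and 0.38.

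Smaller classes gave fewer calls. In OPC-like nuclei 9 of 11 mitochondrial members tested and 8 of 74 nuclear-encoded members were higher (1.1% of all genes higher), led by Atp5k (0.85), with 0.287% lower, but these counts were 5 and 0 without ZT8 replicate 1, 4 and 5 without ZT8 replicate 2, 5 and 1 without ZT20 replicate 1, and 6 and 3 without ZT20 replicate 2. In microglia-like nuclei 2 of 11 and 3 of 73 were higher (0.617% of all genes higher, 0.21% lower), with Atp5md at 0.98 ± 0.17 SE (adjusted p = 0.00042, edgeR). There the mitochondrial count was 0 without ZT8 replicate 1 or either ZT20 library, and the nuclear-encoded count was 1 without ZT20 replicate 1. In endothelial-like nuclei 7 of 13 and 4 of 75 were higher (1.39% of all genes higher, 2.37% lower), and per nucleus both counts were 0. They were 0 and 0 without ZT8 replicate 1, 2 and 0 without ZT8 replicate 2, and 1 and 2 without ZT20 replicate 1, and the nuclear-encoded count was 7 without ZT20 replicate 2. With at most 1% mitochondrial UMIs allowed, both endothelial-like counts were 0, and mt-Co1 and mt-Atp6 changed sign (-0.060 and -0.039). DESeq2 called 4, 0 and 2 mitochondrial and 0, 0 and 0 nuclear-encoded members higher in OPC-like, microglia-like and endothelial-like nuclei. Members called lower by edgeR were 0 in each of these 3 classes. The medians of the mitochondrial members (0.76, 0.63 and 0.74) lay above those of the nuclear-encoded ones (0.37, 0.35 and 0.35).

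**Figure D5:**
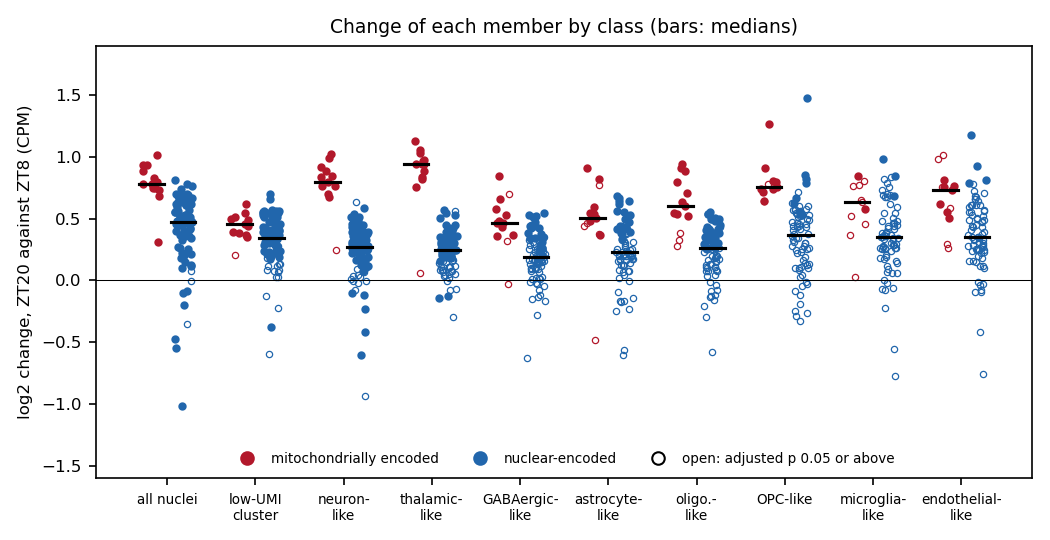
Log2 change from ZT8 to ZT20 in CPM for each member tested, by class; red points are mitochondrially encoded and blue points nuclear-encoded members, filled where the adjusted p was under 0.05, with medians as black bars. The red medians lie above the blue ones in each class, with 0.80 against 0.27 in neuron-like nuclei and 0.45 against 0.34 in the low-UMI cluster.

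In all nuclei pooled, 13 of 13 mitochondrial members and 70 of 79 nuclear-encoded members were higher at ZT20 and 6 nuclear-encoded members lower, against 24.3% and 23.4% of all genes. Per nucleus 11 mitochondrial and 4 nuclear-encoded members were higher and 8 nuclear-encoded members lower, as the median of all genes moved from 0.00 to -0.37. Ndufc1 led with 35.4, 36.1, 62.5 and 66.8 CPM (0.81 ± 0.04 SE per UMI, 0.44 per nucleus, called under both). Uqcr11, Ndufa5, Cox7c, Atp5j2, Cox6b1, Cox8a and Ndufb2 rose by 0.70, 0.59, 0.57, 0.65, 0.51, 0.51 and 0.55 per UMI, and none of these 7 was called per nucleus. Cox4i2 and Ndufa4l2, the vessel isoforms, were lower in the pool (-1.02 ± 0.26 SE and -0.54 ± 0.22 SE), where endothelial-like nuclei were 105 and 115 (ZT8 libraries) against 57 and 61 (ZT20 libraries). Within endothelial-like nuclei their changes were 0.19 ± 0.52 SE and 0.28 ± 0.39 SE (adjusted p = 0.92 and 0.81, edgeR). Cox7b2, Cox6a2, Ndufs1 and Ndufa10 were lower too.

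The low-UMI cluster changed between the times as well. Of its members, 12 of 13 mitochondrial and 58 of 77 nuclear-encoded ones were higher at ZT20 and 1 nuclear-encoded member, Cox6a2, lower (-0.38, not called per nucleus), against 8.67% and 7.05% of all genes. Its nuclear-encoded UMIs per nucleus went from 20.4 and 22.2 to 27.8 and 27.0, while its mean totals were 843, 904, 933 and 884 UMIs. Atp5md, Ndufc1 and Ndufb1-ps led (0.57, 0.70 and 0.56 per UMI). So the members also rose where little nuclear RNA was present. A panel of secreted-product genes (Avp, Oxt, Pmch, Ttr) was 10.6 to 12.7 times as high per nucleus at ZT20 as at ZT8 in each of 7 classes, the low-UMI cluster at 10.6 times, and oligodendrocyte genes in neuron-like nuclei went from 4.03 and 4.73 to 3.16 and 3.10 UMIs per nucleus. Their part in the members' changes was not tested.

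Whether the time change differed between classes was tested with a class by time term. Against neuron-like nuclei, the change was smaller in the low-UMI cluster for 10 of 13 mitochondrial members and larger for 0 (1.26% of all genes smaller, 1.32% larger). It was larger for 4 of 79 nuclear-encoded members and smaller for 0. The mitochondrial difference was most negative for mt-Cytb (-0.54 ± 0.07 SE). Per nucleus 3 mitochondrial members (mt-Cytb, mt-Co1 and mt-Co2) stayed smaller and 22 nuclear-encoded members were larger. The median of all genes for this term moved from 0.02 per UMI to 0.13 per nucleus. That of the mitochondrial members moved from -0.32 to -0.20 and that of the nuclear-encoded members from 0.08 to 0.20. Scaled without the mitochondrial genes, the counts were 6 and 20. The mitochondrial count was 3 without ZT20 replicate 1 and 4 without ZT20 replicate 2 or ZT8 replicate 1, and the nuclear-encoded count was 10 without ZT8 replicate 1, 1 without ZT8 replicate 2 and 2 without ZT20 replicate 2. Under both scalings the mitochondrial median thus lay below that of all genes and the nuclear-encoded median above it. The neuron-like reference is a mixture whose make-up differed between the times. The mitochondrial median over time was 0.945 in thalamic-like and 0.46 in GABAergic-like nuclei, against 0.45 in the low-UMI cluster. This term was not fitted against either neuron group alone or with equal nuclei per cluster.

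Glia differed from neuron-like nuclei as a whole in few members. The mitochondrial medians over time in oligodendrocyte-like (0.61) and astrocyte-like nuclei (0.51) lay above that of GABAergic-like nuclei (0.46). No class by time term was fitted between glia and GABAergic-like nuclei. In oligodendrocyte-like nuclei mt-Nd2 (-0.36 ± 0.09 SE) and mt-Co3 (-0.24 ± 0.06 SE) changed less than in neuron-like nuclei (2 of 13, against 2.24% of all genes smaller and 2.29% larger), and 0 of 78 nuclear-encoded members differed. In astrocyte-like nuclei mt-Co1 (-0.46 ± 0.09 SE) and mt-Co3 (-0.32 ± 0.09 SE) changed less (2 of 13, against 1.62% of all genes smaller and 1.72% larger), and again 0 of 78 nuclear-encoded members differed. Per nucleus mt-Co1 in astrocyte-like nuclei stayed different (-0.34), mt-Co3 and mt-Nd2 did not, and 2 and 3 nuclear-encoded members were larger in astrocyte-like and oligodendrocyte-like nuclei. There the medians of all genes moved from -0.01 to 0.11 and from -0.02 to 0.13 between the scalings. In oligodendrocyte-like nuclei the mitochondrial count was 1 without either ZT8 library and 0 without ZT20 replicate 2, and in astrocyte-like nuclei it was 1 without either ZT8 library or ZT20 replicate 1.

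Other genes of the pathway were read from lists for neuron-like nuclei, where 22.3% of all genes were higher and 21.9% lower. Complex II, which is wholly nuclear-encoded and feeds electrons from succinate, had 0 of 4 genes higher and 2 lower: Sdha, its flavoprotein, changed by -0.08 ± 0.03 SE (adjusted p = 0.043, and -0.14 with equal nuclei per cluster) and Sdhc, a membrane anchor, by -0.15 ± 0.04 SE (adjusted p = 0.01, edgeR). Of the electron carriers, cytochrome c (Cycs) rose by 0.29 ± 0.06 SE and Cyc1 measured -0.09 ± 0.05 SE without a call. Of 41 assembly factors 12 were higher and 7 lower (median 0.05), and of 78 mitochondrial ribosomal proteins 24 were higher and 4 lower (median 0.10). Of 11 citric acid cycle genes 2 were higher and 3 lower. The shares of these 3 lists were not tested against that of all genes, and several lie near it. Cytosolic ribosomal protein genes had 80 of 97 higher and 7 lower, with a median of 0.41, above the 0.27 of the nuclear-encoded members.

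Genes that act on mitochondrial RNA and on respiratory gene transcription changed in different directions. Slirp, which stabilises mitochondrial messenger RNA, rose by 0.73 ± 0.05 SE, and its partner Lrpprc fell by 0.28 (± 0.03 SE). Of 12 genes for upkeep and expression of mitochondrial DNA 2 were higher and 3 lower, and Tfam, which packages that DNA, measured -0.09 ± 0.07 SE (adjusted p = 0.28, edgeR). Of 8 regulators 4 were higher and 4 lower. Of all genes 22.3% were higher and 21.9% lower, and neither list was tested against these shares. Nrf1 rose by 0.33 ± 0.03 SE (0.16 with equal nuclei per cluster, adjusted p = 0.00061 with edgeR) and Gabpa by 0.24 ± 0.06 SE, and Ppargc1a, a coactivator of respiratory genes, fell by 0.17 (± 0.04 SE). Esrra, its nuclear receptor partner, fell by 0.37 (± 0.05 SE) and measured -0.12 with equal nuclei per cluster (adjusted p = 0.17). Per nucleus the regulators had 1 higher and 4 lower.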

How the data were processed

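The deposited matrices give UMI counts, not normalized. Per the file headers the authors' counts came from Cell Ranger 7.0.0, and the submitters' processing notes name Cell Ranger, STAR 2.6 and mm10; whether introns were counted is not given in the sources used here. Barcodes under 500 genes or over 5% mitochondrial UMIs were left out. The automatic doublet calls of Scrublet marked 0 or 1 nucleus a library, so the highest scores were removed (326 to 702 nuclei, 0.8% per 1000). Leiden clustering (scanpy 1.11.5, leidenalg 0.10.2, 3000 variable genes, no members) gave 35 clusters, named from markers, with score thresholds set after the clusters were seen. From 34.0% to 53.2% of nuclei a library stayed unnamed.

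Counts were summed per library and class with at least 50 nuclei in every library (mural-like: 10) and tested with edgeR 4.0.16 (filterByExpr, TMM, robust quasi-likelihood, two-sided, Benjamini-Hochberg over all genes), 2 libraries against 2. Changes are log2 of CPM. Scaling by nuclei was added after seeing the data, as were the tests on the low-UMI cluster. A glutamatergic-like name was not reached, so thalamic-like nuclei took its place in the comparison with GABAergic-like nuclei. On simulated counts of neuron-like nuclei (19458 genes), 98 of 100 genes changed 2-fold and 84 of 100 changed 1.5-fold were recovered, and 9 unchanged genes were called. The simulation gave all genes the same dispersion, changed only well-counted genes and held no difference in the mix of nuclei. Recovery in the real libraries may therefore be lower. Named genes are the 13 mitochondrial members, up to 8 nuclear-encoded members per direction by p (3 in smaller classes), up to 4 per class comparison by size, isoform pairs and core subunits. Members, lists and tests were chosen with earlier results of these data known. Gene spans and overlaps come from GENCODE M21 on GRCm38.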

Additional observations from a re-analysis of the deposited data

Results flagged for a closer look

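The class by time term marked 18 results, 1 test per member and class pair, each against neuron-like nuclei; a negative value is a smaller log2 change from ZT8 to ZT20 than in neuron-like nuclei. In the low-UMI cluster the values were -0.54 for mt-Cytb, -0.38 for mt-Co1, -0.40 for mt-Co2, -0.31 for mt-Co3, -0.26 for mt-Atp6, -0.34 for mt-Nd1, -0.25 for mt-Nd4, -0.24 for mt-Nd2, -0.42 for mt-Nd3 and -0.43 for mt-Nd4l. In the same cluster 4 nuclear-encoded members changed more: Ndufv3, a small subunit of the NADH-binding part of complex I (0.37), Uqcrh, the hinge protein of complex III (0.25), Ndufa5 of complex I (0.24) and Cox7a2l, which takes part in supercomplexes (0.37). In oligodendrocyte-like nuclei the values were -0.36 for mt-Nd2 and -0.24 for mt-Co3, and in astrocyte-like nuclei -0.46 for mt-Co1 and -0.32 for mt-Co3. Scaled by nuclei, 4 of the 14 mitochondrial values stayed past the threshold: mt-Cytb, mt-Co1 and mt-Co2 in the low-UMI cluster and mt-Co1 in astrocyte-like nuclei.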

How the results depend on the processing

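Scaling by nuclei gave 19 of the 22 changes of sign. With it, nuclear-encoded members called higher at ZT20 numbered 4 in all nuclei, 27 in neuron-like, 14 in oligodendrocyte-like, 1 in OPC-like, 1 in microglia-like and 0 in endothelial-like nuclei, and mitochondrial members 5 in OPC-like, 0 in microglia-like and 0 in endothelial-like nuclei. Against neuron-like nuclei, mitochondrial and nuclear-encoded members called higher then numbered 0 and 1 in astrocyte-like, 0 and 0 in oligodendrocyte-like, 0 and 1 in OPC-like, 0 and 0 in microglia-like and 0 and 1 in mural-like nuclei, 10 nuclear-encoded members in endothelial-like nuclei, and 0 and 0 for GABAergic-like against thalamic-like nuclei. Class by time calls became 0 and 3 (oligodendrocyte-like), 1 and 2 (astrocyte-like) and 3 and 22 (low-UMI cluster); scaled without mitochondrial genes they were 6 and 20 in the low-UMI cluster, with 1 nuclear-encoded call in astrocyte-like nuclei. These log2 values changed sign by nuclei: over time, mt-Nd6 in all nuclei -0.065, and Atp5b -0.052 and Atp5g1 -0.030 in neuron-like nuclei; against neuron-like nuclei, Cox7a1 -0.24, Ndufb11 -0.28 and Uqcr11 -0.31 in astrocyte-like, Atp5e -0.45, Uqcr11 -0.48 and Cox6c -0.52 in oligodendrocyte-like, Ndufa3 -0.28, Ndufa4 -0.32 and Uqcr11 -0.41 in OPC-like, Uqcr11 -0.36, Atp5e -0.38, Ndufa3 -0.46 and Ndufa1 -0.50 in microglia-like and Ndufa2 -0.094 in mural-like nuclei; and Ndufb5 -0.029 and Ndufc2 -0.034 in GABAergic-like against thalamic-like nuclei. The scalings differ by construction by the mean UMIs per nucleus.

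DESeq2 called fewer nuclear-encoded members over time: 3 in GABAergic-like, 29 in thalamic-like, 2 in astrocyte-like, 13 in oligodendrocyte-like, and 0 in OPC-like, 0 in microglia-like and 0 in endothelial-like nuclei. It called 4, 0 and 2 mitochondrial members in these last 3 classes, and 37 nuclear-encoded members in GABAergic-like against thalamic-like nuclei. With the same nuclei per cluster, nuclear-encoded calls were 22 in oligodendrocyte-like, 5 in OPC-like and 0 in endothelial-like nuclei, 1 mitochondrial member was called in endothelial-like nuclei, and Cox7b2 in neuron-like nuclei turned to 0.070. Without the filter there was 1 nuclear-encoded call in OPC-like nuclei, and 4 mitochondrial and 2 nuclear-encoded calls in endothelial-like nuclei; without TMM, 5 in OPC-like nuclei and 4 mitochondrial calls in endothelial-like nuclei. Endothelial-like mitochondrial and nuclear-encoded calls were 0 and 0 with at most 1% mitochondrial UMIs (mt-Co1 -0.060, mt-Atp6 -0.039), 4 and 0 with at least 2000 UMIs, and 4 mitochondrial with no limit; microglia-like nuclei had 1 mitochondrial call with at least 2000 UMIs. Deviations of same-numbered libraries from their group means correlated at -0.04 in all nuclei, so the numbers share a label only; with the replicate block endothelial-like calls were 3 and 0, and no other time count moved by over 1.5 times. The difference ZT20 minus ZT8 in percent of UMIs in all nuclei was 0.0562 (mitochondrial) and 0.142 (nuclear-encoded) with at most 1% mitochondrial UMIs, 0.0530 and 0.0694 with at least 2000 UMIs, and 0.0545 and 0.0780 with the same nuclei per cluster. In neuron-like nuclei it was 0.0453 (mitochondrial, at most 1%), and 0.0489 and 0.0469 with the same nuclei per cluster. The causes of these differences were not tested.

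Leaving out each library in turn gave, for mitochondrial and nuclear-encoded calls over time, 10 to 10 and 22 to 30 in oligodendrocyte-like, 4 to 6 and 0 to 5 in OPC-like, 0 to 2 and 1 to 3 in microglia-like and 0 to 8 and 0 to 7 in endothelial-like nuclei, and 4 to 7 mitochondrial calls in mural-like against neuron-like nuclei. Class by time mitochondrial calls ran from 0 to 2 (oligodendrocyte-like), 1 to 2 (astrocyte-like) and 3 to 7 (low-UMI cluster, with 1 to 10 nuclear-encoded). Over single named members, 2768 values under alternatives kept direction and side of the threshold, 337 lost the call, 13 gained it and 22 changed sign. On counts of astrocyte-like nuclei (12058 genes) simulated in the same way, 89 of 100 genes changed 2-fold and 47 of 100 changed 1.5-fold were recovered. There 6 unchanged genes were called, and smaller classes were not simulated.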
